A study of Mus musculus with 1 sample.

Results

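Immunoglobulin gene segments and constant regions were examined in c-kit+ bone marrow (BM) cells of Ctrl mice. The members are the genes that GENCODE M21 types as immunoglobulin V, D, J or C genes, and they were selected on a level above 0 FPKM (fragments on a gene, divided by its length and by the size of the library). This left 227 members of the 264 immunoglobulin genes listed, among 54532 genes in all. RNA of FACS-sorted cells was sequenced as 1 library, from wild type C57BL/6 mice. The sort is labelled as lineage-negative, c-kit+ and Sca-1-negative, and its lineage antibodies in the study's methods include one against B220, a surface form of CD45 carried by B cells. The number of mice in the library and their age are not given in the labels. The library of *Gadd45g*-deficient mice with a myeloproliferative neoplasm, the other arm of the study, was not analysed here, so every comparison below is between genes of 1 library and none carries a test. Intervals are 95% Wilson intervals of the recovered fragments (whole numbers of sequenced fragments, obtained from FPKM and gene length) and cover counting error only.

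Antibodies consist of paired heavy and light chains. During B cell development, V(D)J recombination joins 1 V, 1 D and 1 J segment in the heavy chain locus, and 1 V and 1 J segment in the kappa or the lambda light chain locus, and RNA splicing then attaches a constant region. The heavy chain constant region sets the isotype (IgM, IgD, IgG, IgE or IgA), IgM and IgD being made first and the others after class switching, and plasma cells are the cells that secrete antibody in quantity.

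The V segments that carried the most RNA are shown first, as the last 60 bases of each segment in the GENCODE M21 transcripts on GRCm38, the assembly also called mm10. The capitals mark the codon of the conserved cysteine that precedes the junction with D or J. The bases after it are the unjoined end of the segment, and how many of them remain after joining was not examined. The 5 highest heavy V segments, the 5 highest kappa V segments and the 3 lambda V segments follow in that order.
Ighv1-55: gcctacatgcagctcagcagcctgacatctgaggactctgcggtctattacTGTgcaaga
Ighv9-2: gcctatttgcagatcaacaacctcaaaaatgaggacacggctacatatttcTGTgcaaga
Ighv1-9: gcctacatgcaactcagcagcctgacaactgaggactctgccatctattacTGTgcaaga
Ighv1-26: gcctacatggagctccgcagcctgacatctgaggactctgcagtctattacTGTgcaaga
Ighv3-6: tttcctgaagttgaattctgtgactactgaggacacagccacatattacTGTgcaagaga
Igkv1-122: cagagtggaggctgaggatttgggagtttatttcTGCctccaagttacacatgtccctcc
Igkv16-104: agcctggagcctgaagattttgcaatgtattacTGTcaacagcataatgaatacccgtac
Igkv19-93: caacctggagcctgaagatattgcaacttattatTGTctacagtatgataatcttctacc
Igkv12-46: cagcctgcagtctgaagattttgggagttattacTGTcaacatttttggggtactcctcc
Igkv15-103: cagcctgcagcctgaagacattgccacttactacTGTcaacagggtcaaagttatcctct
Iglv1: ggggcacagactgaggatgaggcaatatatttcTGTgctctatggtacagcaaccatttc
Iglv2: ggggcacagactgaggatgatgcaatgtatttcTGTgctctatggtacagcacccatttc
Iglv3: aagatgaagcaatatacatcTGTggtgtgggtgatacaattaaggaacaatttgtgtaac

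The J segments are short enough to be shown whole. Capitals mark the 12 bases that code for tryptophan or phenylalanine, glycine, any residue and glycine, searched on the coding strand as TGG or TTC followed by GGN, NNN and GGN. The run was found in 12 of the 14 J segments, and *Igkj3* and *Iglj3p* lack it. *Iglj2* and *Iglj4*, listed at 0 FPKM, carry it but are not shown. For *Ighj2* the longer of its annotated forms is not shown.
Ighj1: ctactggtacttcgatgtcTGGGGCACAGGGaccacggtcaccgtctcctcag
Ighj2: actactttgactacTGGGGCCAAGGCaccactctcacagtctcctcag
Ighj3: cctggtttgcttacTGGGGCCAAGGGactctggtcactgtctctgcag
Ighj4: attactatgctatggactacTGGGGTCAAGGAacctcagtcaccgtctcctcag
Igkj1: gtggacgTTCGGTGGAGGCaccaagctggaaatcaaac
Igkj2: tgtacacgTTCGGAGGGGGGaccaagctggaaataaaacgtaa
Igkj3: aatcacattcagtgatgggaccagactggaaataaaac
Igkj4: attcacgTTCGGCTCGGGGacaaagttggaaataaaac
Igkj5: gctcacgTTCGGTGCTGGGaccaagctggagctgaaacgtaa
Iglj1: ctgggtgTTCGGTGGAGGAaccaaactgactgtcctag
Iglj3: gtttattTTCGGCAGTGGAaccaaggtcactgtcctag
Iglj3p: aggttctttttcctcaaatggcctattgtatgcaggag

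Immunoglobulin RNA made up 4.06% of the summed FPKM of the library, and 1.12% of its recovered fragments. Of the 264 listed genes, 86.0% were above 0, beside 39.1% of all listed genes. At least 1 FPKM was reached by 208 of them, or 78.8%, beside 22.2% of all listed genes. The share above 0 is what the selection used and is read no further. At its edge, 7 members rested on 1 fragment, the lowest of them at 0.176 FPKM. The 37 genes at 0 comprise 20 V, 15 D and 2 J segments. A count of 0 allows up to 3 fragments, which is 0.512 to 0.646 FPKM for a V segment and up to 19.0 FPKM for a D segment.

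The kappa locus on chromosome 6 held 53.7% of the summed immunoglobulin FPKM, the heavy locus on chromosome 12 held 41.2% and the lambda locus on chromosome 16 held 5.09%. Summed levels were 9366 FPKM over 108 kappa genes, 7178 FPKM over 144 heavy genes and 886 FPKM over 12 lambda genes. By recovered fragments the order of the first 2 loci was the reverse, with 63.7% on heavy and 33.4% on kappa genes, since heavy constant regions are longer and fragments are not divided by length. The members above 0 numbered 101 for kappa, 116 for heavy and 10 for lambda.

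Within each locus, the summed V level was near the summed C level. The V sum divided by the C sum was 1.33 for heavy, 1.09 for kappa and 1.15 for lambda, on the FPKM scale. J segments summed to far less, at 4.21% of the C sum for heavy, 7.84% for kappa and 25.3% for lambda. Together the 14 J segments had 382 recovered fragments, against 137895 on the 13 constant region genes and 53571 on the 218 V segments. The J levels thus rest on few fragments of segments 38 to 100 bases long, and how fragments spanning V, J and C were assigned was not tested.

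**Figure D1:**
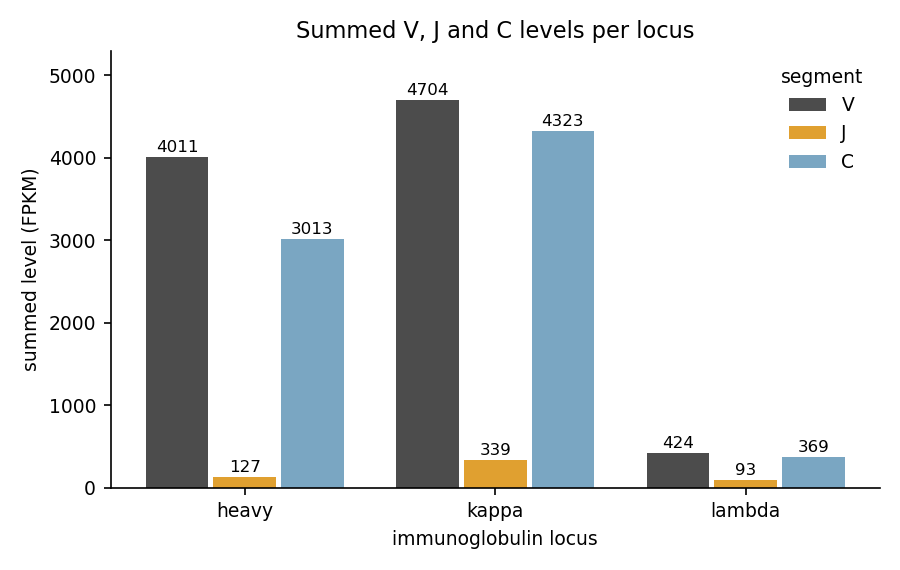
Summed level (FPKM, linear axis from 0) of all V, J and C genes of each locus in the 1 Ctrl library; bars are sums over genes and have no error bar. V and C bars are of similar height within each locus, with kappa at 4704 and 4323 FPKM, and J bars are low throughout.

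*Igkc*, the only kappa constant region (chr6:70726435-70726966), was the highest immunoglobulin gene at 4323 FPKM (4279 to 4368, 36302 fragments) and ranked 9th among all genes. The lambda constant regions were much lower. *Iglc1* was at 178 FPKM (168 to 188), *Iglc2* at 121 FPKM (114 to 128) and *Iglc3* at 69.0 FPKM (63.1 to 75.3). *Iglc4* was close to undetected, with 9 fragments and 1.82 FPKM (0.955 to 3.45). Their intervals did not overlap, so the order *Iglc1*, *Iglc2*, *Iglc3*, *Iglc4* held within counting error in this library. The first 2 lay closer by fragments, which are not divided by their 454 and 612 annotated bases. *Iglc1* held 43.3% of the lambda constant region fragments (41.6 to 45.1) and *Iglc2* 39.6% (37.9 to 41.4). Sequence sharing among constant regions was not examined.

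Kappa therefore held 92.1% of the light chain constant region level and lambda 7.87%. The kappa share was 92.5% by fragments (92.2 to 92.8) and 91.7% when V segments were used in place of constant regions. With J segments it was 78.4%, and 79.2% of 269 J fragments (73.9 to 83.6). These J values include *Igkj3* and *Iglj3p*, which lack the run marked in capitals above. *Igkc* stood 11.7-fold above the summed lambda constant regions.

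Among heavy chain constant regions, *Ighm*, which codes for the IgM heavy chain, led with 2005 FPKM (1989 to 2021, 59690 fragments) and ranked 20th among all genes (chr12:113418558-113422730). *Ighd*, the IgD heavy chain gene next to it (chr12:113406604-113416324), was at 60.3 FPKM (57.6 to 63.2), so that *Ighm* was 33.2-fold higher. The 2 genes are transcribed as 1 unit in naive B cells and separated by RNA processing.

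Constant region genes of the class-switched isotypes were all above 0, with *Ighe* close to undetected. Whether their RNA came from switched loci was not tested. *Ighg2b* was the highest at 368 FPKM (362 to 373), followed by *Igha*, the IgA gene, at 274 FPKM (269 to 279). *Ighg3* was at 140.4 FPKM (137 to 144), *Ighg2c* at 114 FPKM (109 to 118) and *Ighg1* at 52.1 FPKM (49.9 to 54.3). *Ighe*, the IgE gene, had 5 fragments and 0.200 FPKM (0.0854 to 0.468), the lowest of the 13 constant regions. No neighbours in the order of the 8 heavy constant regions had overlapping intervals.

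IgM accounted for 66.5% of the heavy constant region FPKM, and IgG, IgA and IgE genes together for 31.5%. The 4 IgG genes held 22.4% and *Igha* 9.09%. By fragments the IgM share was 60.5% (60.2 to 60.8) and the switched genes stood at 37.7% (37.36 to 37.96), because the annotated exons of *Ighm* cover 1886 bases while those of *Ighg2b* cover 2678. Within IgG, *Ighg2b* held 54.6%, *Ighg3* 20.8%, *Ighg2c* 16.9% and *Ighg1* 7.73% of the FPKM. The place of *Ighg2c* depended on the scale: with 1326 annotated bases, it held 9.30% of the IgG fragments (8.95 to 9.66), near *Ighg1* at 8.31% (7.98 to 8.66).

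Summed over all light chain constant regions the level was 4693 FPKM, 1.56-fold the heavy sum of 3013 FPKM. By recovered fragments, which are not divided by length, the direction turned, with 39244 on light and 98651 on heavy constant regions. The positions of the switched genes along the locus and their levels did not run together. *Ighg3*, the first switched gene after *Ighd*, was below *Ighg2b*, the third, and *Igha*, the last, was second among the switched genes.

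**Figure D2:**
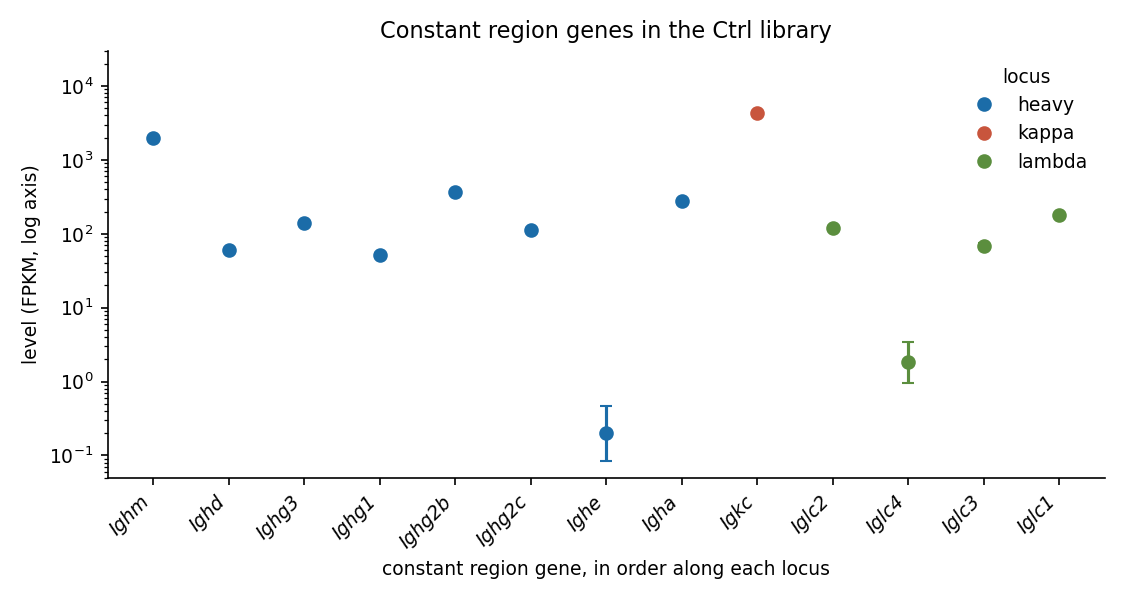
Level (FPKM, log axis) of the 13 constant region genes in the Ctrl library, with 95% Wilson intervals of counting error, in order along each locus and coloured by locus. *Igkc* at 4323 and *Ighm* at 2005 FPKM stand above the rest, and *Ighe* at 0.200 and *Iglc4* at 1.82 FPKM below them; most intervals are narrower than the points.

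J and D segments were covered thinly. Of the kappa J segments, *Igkj3* was at 86.7 FPKM (66.1 to 114, 52 fragments), *Igkj4* at 81.7 FPKM and *Igkj5* at 76.9 FPKM, and these 3 could not be ordered within counting error. *Igkj1* was the lowest, at 31.7 FPKM (20.3 to 49.5, 19 fragments), and its interval lay below that of *Igkj3*. *Igkj3* is the kappa J segment whose sequence above lacks the capitals, and whether its fragments come from joined kappa chains was not tested.

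Of the heavy J segments, *Ighj4* was the highest at 52.8 FPKM (45 fragments), then *Ighj3* at 37.0 FPKM (28 fragments), *Ighj1* at 25.1 FPKM and *Ighj2* at 12.04 FPKM. The last rests on an annotated length of 100 bases, and by fragments *Ighj2* with 19 and *Ighj1* with 21 were close. In the lambda locus, *Iglj1* had 34 fragments (56.7 FPKM), *Iglj3p* 16 (26.7 FPKM) and *Iglj3* 6 (10.004 FPKM), while *Iglj2* and *Iglj4* were listed at 0. All 38 bases of *Iglj2* lie within an annotated exon of *Iglc2*, so a fragment there has 2 possible genes.

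Of the 19 D segments, 4 were above 0 (21.1%, beside 39.1% of all listed genes). *Ighd4-1* and *Ighd2-3* had 2 fragments each, and *Ighd3-2* and *Ighd2-6* had 1 each. Their FPKM of 3.73 to 11.5 comes from annotated lengths of 11 to 17 bases, as the whole *Ighd4-1* segment (ctaactgggac) shows, and carries no order.

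V segments stood at very uneven levels. The members include 100 of 113 heavy and 95 of 102 kappa V segments, as the selection on a level above 0 left them. The heavy median over all 113 was 10.3 FPKM with quartiles at 2.17 and 39.5 FPKM, and the kappa median over all 102 was 18.4 FPKM with quartiles at 2.62 and 56.4 FPKM. The SD of log2 FPKM was 2.47 over the heavy and 2.66 over the kappa V segments above 0, and both sets began at 1 fragment and ended at the 3370 of *Ighv1-55* and the 3651 of *Igkv1-122*.

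*Ighv1-55* was the highest heavy V segment, with 514 FPKM (497 to 532, 3370 fragments) at chr12:115208095-115208591, and *Ighv9-2* was next with 456 FPKM (439 to 474) at chr12:114109001-114109430. *Ighv1-9* reached 299 FPKM (285 to 314), *Ighv1-26* 217 FPKM (205 to 229) and *Ighv3-6* 178 FPKM (167 to 189). The intervals of these 5 did not overlap. The sixth, *Ighv1-37*, chosen after its values were seen, was at 175 FPKM (164 to 186) and could not be told from *Ighv3-6*.

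In the kappa locus *Igkv1-122* was first at 604 FPKM (585 to 624, 3651 fragments), at chr6:68016718-68017488. It was followed by *Igkv16-104* at 364 FPKM (349 to 380) and *Igkv19-93* at 279 FPKM (266 to 293). *Igkv12-46* was at 173 FPKM (163 to 184) and *Igkv15-103* at 152 FPKM (142 to 162), with intervals that barely separated. *Igkv16-104*, *Igkv15-103* and *Igkv19-93* share no 50-base stretch with any other annotated immunoglobulin gene, so their fragments have no identical copy of that length to be split with.

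The highest V segment held nearly the same share of its locus in both cases, 12.8% for *Ighv1-55* and 12.8% for *Igkv1-122*. The 10 highest V segments held 55.7% of the heavy and 47.9% of the kappa V level. It took 8 heavy and 11 kappa V segments to reach 50%, and 41 in either locus to reach 90%. The effective number of V segments, the exponential of the Shannon entropy of their shares, was 37.4 for heavy and 41.3 for kappa.

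**Figure D3:**
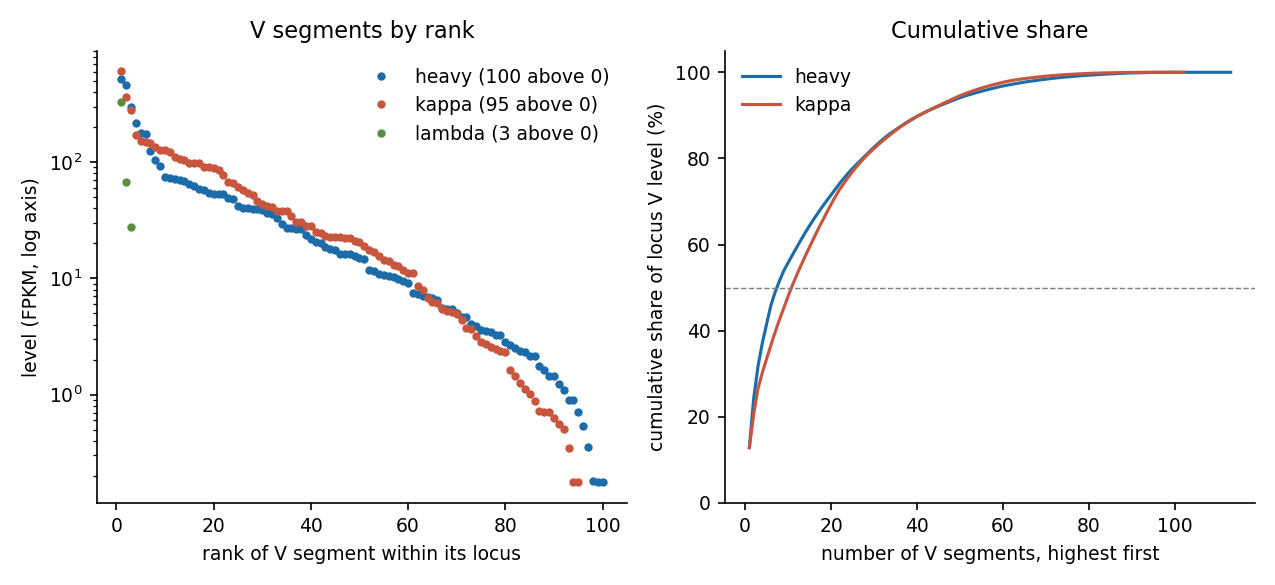
Left, level (FPKM, log axis) of each V segment above 0 against its rank within its locus; right, cumulative share (%) of the summed V level of the locus, highest segment first, with a dashed line at 50%. The heavy curve crosses the line at 8 segments and the kappa curve at 11, and the curves meet near 90% at 41 segments.

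V segments are grouped into families by sequence. The large *Ighv1* family, 53 of the 113 heavy genes or 46.9%, held 62.5% of the heavy V level (2508 FPKM). *Ighv9* followed with 13.3% from 4 genes, of which *Ighv9-2* alone made up 85.3%, and *Ighv3* with 4.92% from 6 genes, of which *Ighv3-6* made up 90.2%. Both smaller families were thus carried by 1 segment each, while the highest *Ighv1* segment made up 20.5% of its family.

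Among kappa families, *Igkv1* held 18.8% of the V level from 10 genes, with *Igkv1-122* at 68.4% of that. The most numerous family, *Igkv4*, had 26 genes or 25.5% of the locus and held 10.96%, and *Igkv6* had 9 genes and held 10.9%. *Igkv4* thus took a smaller share of the level than of the genes, the opposite of *Ighv1*.

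The 3 lambda V segments were all detected. *Iglv1* was at 329 FPKM (77.6% of lambda V), *Iglv2* at 67.3 FPKM (15.9%) and *Iglv3* at 27.8 FPKM (6.55%). In the mouse, *Iglv1* is mostly joined to J segments ahead of *Iglc3* or *Iglc1*, and *Iglv2* and *Iglv3* to that ahead of *Iglc2*. *Iglc1* and *Iglc3* summed to 247 FPKM, so that *Iglv1* was 1.33-fold their sum. *Iglv2* and *Iglv3* summed to 95.1 FPKM, 0.788 of the *Iglc2* level. *Iglv1* and *Iglv2* are 97.5% identical over their last 280 bases and share 22.2% of the 50-base windows of *Iglv1*, so fragments of these 2 genes may have been split between them.

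In genomic order, V levels were spread over the whole of both loci. The 56 heavy V genes nearest to the D segments held 43.8% of the V level (median 8.29 FPKM), and the 57 distal genes 56.2% (median 11.01 FPKM). Without the 3 highest heavy V segments the proximal share was 36.5%. The largest shares per 10 genes were 20.7% at places 81 to 90 from the J side, where *Ighv1-55* lies, and 19.4% at places 31 to 40, where *Ighv9-2* and *Ighv3-6* lie.

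For kappa, the 51 V genes nearest to J held 43.8% and the 51 distal genes 56.2%, but the medians ran the other way, at 20.9 and 14.2 FPKM. This split turned over without the 3 highest kappa V segments, *Igkv1-122*, *Igkv16-104* and *Igkv19-93*, which are all distal: the proximal share was then 59.5%. Places 81 to 90 from J held 31.9% of the kappa V level, and places 61 to 70 held 1.92%. The former was the largest share of any 10 neighbouring places counted in this way, and it includes *Igkv1-122*, *Igkv16-104* and *Igkv15-103*.

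Kappa V genes lie in either orientation, and recombination inverts or deletes the DNA between V and J accordingly. The 38 genes on the strand of *Igkc* held 52.4% of the V level with a median of 27.6 FPKM, and the 64 genes on the opposite strand 47.6% with a median of 14.3 FPKM. Without *Igkv1-122* the same-strand share was 45.4%, so which orientation held more of the level turned on 1 segment. All 113 heavy V genes lie on the strand of their constant regions.

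**Figure D4:**
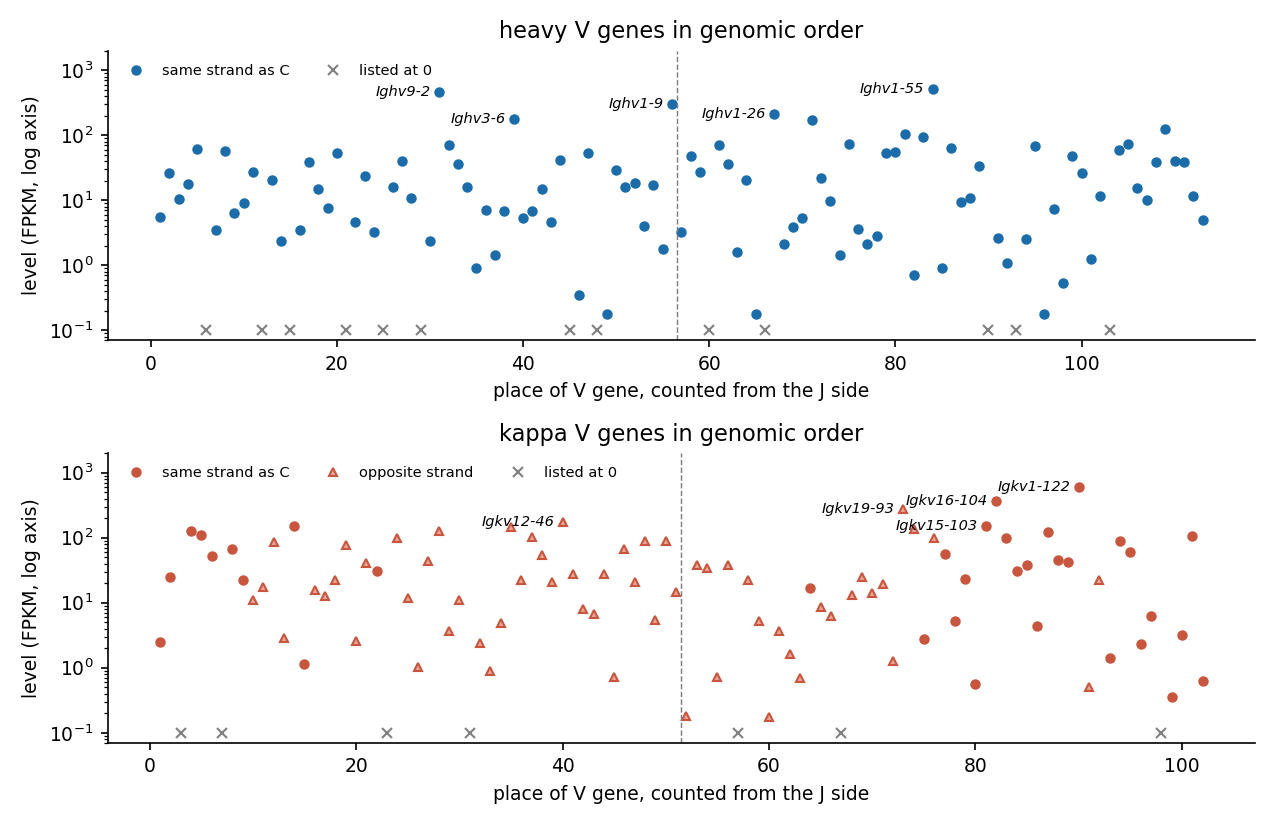
Level (FPKM, log axis) of each heavy (top) and kappa (bottom) V gene against its place counted from the J side; circles are genes on the strand of the constant region, triangles genes on the opposite strand, crosses genes listed at 0 (drawn at the bottom), and the dashed line divides proximal from distal genes. The 5 highest of each locus are named; *Igkv1-122*, *Igkv16-104*, *Igkv15-103* and *Igkv19-93* cluster on the distal side of kappa.

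Near-identical copies limit single V values. At least 50% of the 50-base windows were shared with another immunoglobulin gene in 14 heavy V genes, which held 7.49% of the heavy V level, and in 16 kappa V genes, which held 11.5%. Genes that shared some windows, but under 50%, held 87.2% of the heavy and 58.4% of the kappa V level. Genes that shared none held 5.28% and 30.2%. Of the 5 highest heavy V segments, *Ighv1-26* shared 49.0% of its windows, *Ighv1-55* 34.7%, *Ighv9-2* 23.5%, *Ighv3-6* 2.91% and *Ighv1-9* 0.576%. Over the last 280 bases *Ighv1-26* was 97.1% identical to *Ighv1-18*, and *Ighv1-55* 96.1% identical to the pseudogene *Ighv1-62*. Of the 5 highest kappa V segments, *Igkv12-46* with 9.76% and *Igkv1-122* with 17.1% shared any windows.

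T cell receptor genes, which are assembled by the same recombination in T cells, served as a comparison of levels. Of 226 listed, 89 (39.4%) were above 0, near the 39.1% of all listed genes, and 42 reached 1 FPKM (18.6%, beside 22.2% of all listed genes). They held 0.0554% of the summed FPKM. *Trbc2*, the highest T cell receptor constant region, was at 35.3 FPKM (32.0 to 39.0), and *Igkc* was 122-fold higher. Of 144 T cell receptor V genes 59 (41.0%) were above 0, none over 5.40 FPKM. The immunoglobulin V median was 14.3 FPKM over all 218.

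V pseudogenes of the immunoglobulin loci resemble V segments and lie among them. Of 155 listed, 30 were above 0 (19.4%, beside 39.1% of all listed genes) and 6 reached 1 FPKM (3.87%, beside 22.2%). The highest was *Ighv1-41* at 12.3 FPKM (9.65 to 15.7, 64 fragments), and *Ighv8-10* was next at 4.25 FPKM. All other V pseudogenes were at or below 2.34 FPKM. V genes of the same loci had a median of 10.3 FPKM for heavy and 18.4 FPKM for kappa, above the level of nearly every pseudogene.

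**Figure D5:**
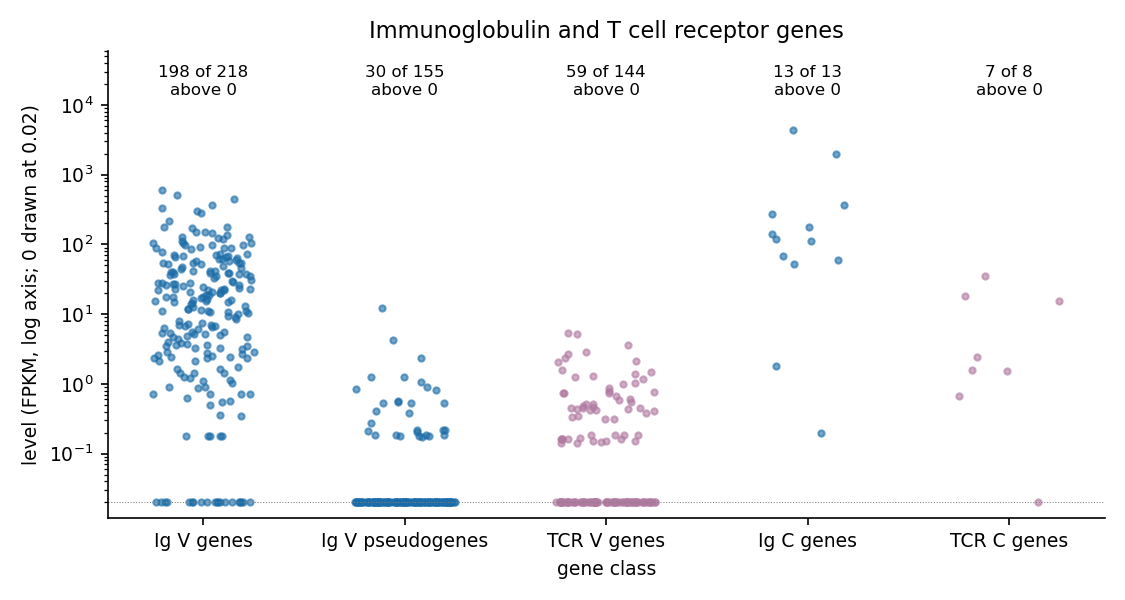
Level (FPKM, log axis, values of 0 drawn at 0.02) of each gene in 5 classes, with the number above 0; TCR is T cell receptor and points are spread sideways for visibility. Immunoglobulin V genes reach 604 FPKM, V pseudogenes 12.3 FPKM and T cell receptor V genes 5.40 FPKM.

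Genes that act around the immunoglobulin loci were looked at as fixed lists. All 13 genes of V(D)J recombination were at or above 1 FPKM (median 5.78), beside 46.8% of all protein-coding genes. Whether recombination took place in these cells was not tested. *Rag1*, a subunit of the recombinase, was at 11.03 FPKM (10.4 to 11.7) and its partner *Rag2* at 1.13 FPKM (0.879 to 1.45), the lowest of the list, and *Hmgb2*, a chromatin protein used by many cells, was the highest at 355 FPKM. The 4 surrogate light chain genes, which stand in for a light chain in pre-B cells, ran from *Vpreb3* at 56.6 FPKM to *Vpreb2* at 1.84 FPKM, with *Vpreb1* at 13.2 and *Igll1* at 8.58 FPKM.

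The 8 B cell receptor signalling genes had a median of 63.5 FPKM. *Cd79a* and *Cd79b*, the signalling chains that accompany membrane immunoglobulin, were at 173 and 123 FPKM, and the lowest was the adaptor *Blnk* at 7.67 FPKM. Several of these genes, such as *Lyn* and *Syk*, are also used by myeloid cells.

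The plasma cell list had a median of 10.3 FPKM over 8 genes. It was led by *Jchain*, the joining chain of secreted IgM and IgA, at 246 FPKM (241 to 251), with *Xbp1*, a regulator of secretory capacity, at 50.8 FPKM. *Prdm1* at 1.08 FPKM (0.883 to 1.32) and *Tnfrsf17* at 1.79 FPKM (1.19 to 2.68) were the lowest.

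Markers of B cells were present in full: 9 of 9 early B cell genes (median 11.03 FPKM, *Rag2* lowest at 1.13 FPKM) and 8 of 8 mature B cell genes (median 16.8 FPKM, *Cd37* highest at 82.1 FPKM, *Cr2* lowest at 2.13 FPKM) reached 1 FPKM. So did 6 of 6 T cell genes, at a median of 4.43 FPKM, and 46.8% of all protein-coding genes. Against the label of the sort, mature neutrophil genes had a high median (6 of 6 at 1 FPKM or more, median 6171 FPKM, *S100a9* at 26677 FPKM). So did erythroid genes (6 of 6, median 1113 FPKM). Progenitor genes had a far lower median (6 of 6, 11.8 FPKM) but were uneven. *Elane* at 781 FPKM and *Mpo* at 434 FPKM stood above *Klf1*, the lowest erythroid gene, at 141 FPKM. *Myb* was at 16.5 FPKM, *Kit*, the sorted antigen, at 7.17 FPKM (6.74 to 7.62), *Gata2* at 6.82 FPKM and *Cd34* at 5.22 FPKM. The part of each cell type in the immunoglobulin RNA was not tested. In RNA of a mixed population, few cells with much RNA each and many cells with little cannot be told apart, and neither can a few expanded clones and many cells that use the same V segment.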

How the data were processed

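The authors extracted RNA from FACS-sorted c-kit+ cells with TRIzol and read it on a HiSeq 4000 (Illumina). Here 1 library was used, from Ctrl mice. The deposited values are FPKM, 1 per Ensembl gene, made by the authors by dividing fragments by gene length and library total. The submitters' processing notes name HISAT2 2.0.5, featureCounts 1.5.0-p3 and mm10. Annotation, strandedness, read length and the treatment of fragments with several matches are not given in the sources used here.

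Of 54532 listed genes, 54495 were matched to GENCODE M21 by gene ID, which gave type, exon-union length and coordinates, and 37 were not. FPKM times length was a whole multiple of 1 step, within 0.01, for 96.4% of 21313 matched genes above 0 and for all 227 members, and the multiples were taken as fragments. They sum to 17113323, while the step implies a library of 15783891. The excess includes genes whose multiple was not whole. Recovery was also run on counts simulated with the same gene lengths, and scored only on genes whose length was left unchanged. It was exact for 100% of 19267 genes. Such a run cannot show that the deposited values were made with these lengths. Wilson intervals at 95% are of these fragments. A zero was given a limit of 3 fragments.

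Members and gene lists were chosen with earlier results of these data known. Genes named are all constant regions, the highest D and J segments, the 5 highest heavy and kappa V segments, all lambda V segments, 3 families per locus and the extremes of each list; some genes and 1 list are not reported here. No test was made, since 1 library gives no replicate error. V segments were compared by 50-base windows and by global alignment of their last 280 bases (Biopython 1.88), with pandas 2.3.3, numpy 2.4.6 and Python 3.11.15. Alternatives were fragments in place of FPKM, minimum levels, pseudocounts, other segment classes, other splits of the V loci and leaving out the highest segments. Promoter octamers and recombination signals were not analysed here.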

Additional observations from a re-analysis of the deposited data

How the results depend on the processing

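Each of 29 alternative values for 11 results was set against a limit. The limit was the counting interval for a share, 1.5 times for a count and a small fixed difference, not a counting interval, for an SD. Within it stayed 7 values, among them those for the number of members. That number was 208 at 1 FPKM or more and 192 with at least 10 fragments, beside 227. The others moved as follows. The immunoglobulin share of the library, 4.06%, was 1.12% by recovered fragments, 4.13% without the 10 most abundant genes and 1.80% from constant regions only; an alternative added after seeing the data, fragments over the total that the step implies, gave 1.22%. The kappa share of light chain constant regions, 92.1%, was 92.5% by fragments, 91.7% by V and 78.4% by J segments. The IgM share, 66.5%, was 60.5% by fragments and 67.9% without *Ighd*. The SD of log2 FPKM for heavy V segments, 2.47, was 2.06 with 1 FPKM added, 2.39 with 0.1 FPKM added and 1.93 over those with at least 10 fragments; for kappa, 2.66 became 2.23, 2.58 and 1.92. The D-proximal share of heavy V, 43.8%, was 43.1% by fragments, 40.8% with the 37 nearest set against the 37 farthest genes and, in an added alternative, 36.5% without the 3 highest segments. The J-proximal share of kappa V, 43.8%, was 32.5% with the 34 nearest set against the 34 farthest genes and, in an added alternative, 59.5% without the 3 highest segments. The share of kappa V on the strand of *Igkc*, 52.4%, was 45.4% without *Igkv1-122* and 53.1% by fragments, both added after seeing the data. Settings that leave genes out, or that do not divide by length, change a share by arithmetic. No further cause of these shifts was tested.

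No paired analysis was possible because there is 1 library. Biological error is unknown for every value, J and D segments rest on few fragments, and how fragments were assigned among near-identical V segments was not tested. The planned search for promoter octamers and recombination signals was not run.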

Other observations

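Several kappa families have 1 gene typed as a V gene, pseudogenes left aside, and the levels of these genes ran from 0.561 FPKM (*Igkv20-101-2*) to 364 FPKM (*Igkv16-104*). *Igkv16-104* at 364 FPKM, *Igkv19-93* at 279 FPKM and *Igkv15-103* at 152 FPKM are the only V genes of their families in this sense, as are *Igkv7-33* at 3.65 FPKM, *Igkv18-36* at 2.39 FPKM and *Igkv11-125* at 1.44 FPKM. The last 3 and *Igkv20-101-2* were chosen after their values were seen. *Igkv11-125* is the V gene nearest in sequence to *Igkv16-104*, with 74.0% identity over the last 280 bases.

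Some closely related V genes differed widely in level. *Ighv9-2* and *Ighv9-1*, 96.1% identical over the last 280 bases, were at 456 and 2.35 FPKM. *Ighv1-37* and *Ighv1-20*, 98.6% identical, were at 175 and 1.62 FPKM. *Ighv3-6* and *Ighv3-1*, 93.2% identical, were at 178 and 3.26 FPKM. *Ighv1-62-2* and *Ighv1-71*, identical over this stretch, were at 2.68 FPKM (1.65 to 4.36) and 1.24 FPKM (0.598 to 2.55), with intervals that overlapped. These pairs were chosen after their values were seen, and how the counting treated fragments that match both genes was not tested.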
